A study of Mus musculus with 14 samples.

Results

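The narrow H3K4me3 regions at named genes were the 715 regions under 1000 bp wide to which the deposited tables gave a gene, out of 14881 regions with values and 11388 regions at a named gene. They lay at 696 genes. They were taken by width and annotation alone, without regard to treatment, and are set here against the 10673 regions at named genes that were 1000 bp or wider. The width of a region may itself follow its signal, so weak signal in narrow regions may be in part built into the rule. H3K4me3 was profiled by ChIP-seq, which sequences the DNA recovered with an antibody to the mark, in cerebral cortex taken from C57BL/6J mice at the age of 3 months. The groups were nicotine after birth only (4 libraries), saccharin after birth only (4 libraries), nicotine before and after birth (3 libraries) and saccharin before and after birth (3 libraries), with the saccharin groups as controls. All samples share 1 treatment text: the solution was given to pregnant mice from conception and ended at day 21 of the offspring, which were left to day 90. That text does not set out the course limited to the time after birth, and it does not say whether a replicate was a separate animal, so the p-values below measure the spread between samples.

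Trimethylation of lysine 4 on histone H3 is laid down by COMPASS-type methyltransferases and marks the nucleosomes around the start sites of active genes. At CpG island promoters it usually forms broad, strong peaks, while weak or short peaks are found at genes active in few cells, at alternative start sites and at enhancers. In the cortex, a tissue mixed from neurons and glia, a promoter used by a minor cell type gives a faint peak in the bulk signal. A region's signal in such tissue does not tell apart fewer marked cells from less of the mark in each.

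Before the results, the libraries differed in ways that touch them. Values are read counts per region already adjusted by the authors, here called signal, and each exposure has its own separately adjusted table. Summed signal was 2004918 to 2489860 in postnatal libraries and 1445810 to 2372855 in pre- and postnatal ones, and raw depth is unknown. Libraries 1 and 2, and libraries 3 and 4, of each postnatal group differed by little more than counting noise (variance 1.01 to 1.08 times that of counting noise, against 2.21 to 2.71 times for other pairs of a group) and were averaged, which left n = 2 against 2. The 15 strongest of all regions held 8.30% to 25.5% of the signal in postnatal libraries and 19.1% to 49.7% in pre- and postnatal ones. In the postnatal table nicotine libraries 1 and 2 and saccharin libraries 3 and 4 were high in this share, and the other libraries of each group were low. Of the marker genes of cortical cell types, those of excitatory neurons had regions for 4 of 6 genes, all wide, and those of microglia for 1 of 5, the transcription factor gene Irf8, whose region was narrow.

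Promoter sequences are printed for 5 genes whose only regions were narrow and that recur in the results below. Zxdb, Fgfr1op and Tagap1 were among the strongest narrow regions, Susd3 had the lowest p-value of those higher with nicotine after birth, and Hist1h2ab was among those lower. The sequences are RefSeq promoters of build GRCm38.p6, from 250 bases before to 50 bases after the start, written 5′ to 3′ with each CpG, the dinucleotide that can be methylated, in capitals. They lie at chrX:94724319-94724618 (plus strand) for Zxdb, chr17:8165268-8165567 (plus strand) for Fgfr1op, chr17:6961107-6961406 (minus strand) for Tagap1, chr13:49248245-49248544 (minus strand) for Susd3 and chr13:23750838-23751137 (plus strand) for Hist1h2ab. The regions themselves are on build mm9, so where each lies relative to these starts was not analysed here.
Zxdb: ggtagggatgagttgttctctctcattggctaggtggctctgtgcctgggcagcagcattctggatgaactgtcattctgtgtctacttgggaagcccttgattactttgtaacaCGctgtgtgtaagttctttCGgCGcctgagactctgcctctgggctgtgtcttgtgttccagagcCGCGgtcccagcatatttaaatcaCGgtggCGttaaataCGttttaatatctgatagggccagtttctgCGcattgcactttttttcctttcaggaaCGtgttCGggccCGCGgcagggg
Fgfr1op: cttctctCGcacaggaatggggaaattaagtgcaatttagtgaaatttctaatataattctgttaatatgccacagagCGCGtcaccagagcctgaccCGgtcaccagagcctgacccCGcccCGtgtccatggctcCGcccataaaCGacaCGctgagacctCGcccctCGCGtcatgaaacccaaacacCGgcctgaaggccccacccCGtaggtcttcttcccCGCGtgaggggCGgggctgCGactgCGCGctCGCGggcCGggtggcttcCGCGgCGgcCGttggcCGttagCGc
Tagap1: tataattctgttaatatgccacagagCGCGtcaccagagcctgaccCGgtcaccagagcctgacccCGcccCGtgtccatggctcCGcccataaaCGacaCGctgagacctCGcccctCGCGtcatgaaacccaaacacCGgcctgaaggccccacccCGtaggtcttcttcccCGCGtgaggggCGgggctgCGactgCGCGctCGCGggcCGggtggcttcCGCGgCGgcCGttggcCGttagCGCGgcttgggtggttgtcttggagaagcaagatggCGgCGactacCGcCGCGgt
Susd3: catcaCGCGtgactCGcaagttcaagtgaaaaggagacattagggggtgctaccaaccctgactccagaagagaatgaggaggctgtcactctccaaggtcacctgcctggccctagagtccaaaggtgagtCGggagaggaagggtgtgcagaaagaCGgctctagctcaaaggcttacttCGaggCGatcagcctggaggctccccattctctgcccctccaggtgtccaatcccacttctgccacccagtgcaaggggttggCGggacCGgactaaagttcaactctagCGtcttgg
Hist1h2ab: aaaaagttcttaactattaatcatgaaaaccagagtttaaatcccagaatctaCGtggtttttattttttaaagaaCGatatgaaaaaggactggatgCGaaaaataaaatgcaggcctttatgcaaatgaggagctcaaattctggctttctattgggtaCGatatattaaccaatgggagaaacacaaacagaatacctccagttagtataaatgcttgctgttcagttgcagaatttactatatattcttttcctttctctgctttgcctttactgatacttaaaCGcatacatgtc

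The Fgfr1op and Tagap1 promoters were the same over 248 of 248 bases, the second being shifted by 52 bases along the first. Reads from one copy may therefore have been counted at the other, and the values of both regions are uncertain. Tagap1 held 34 CpGs in its 300 bases, Fgfr1op 29, Zxdb 13, Susd3 10 and Hist1h2ab 5. Hist1h2ab, which encodes a replication-type histone H2A, carried a TATA box (TATAAA) and a CCAAT box, searched on both strands. Those letters were found in 15.7% and 41.1% of the 27025 genes with a RefSeq promoter in the table. Zxdb and Susd3 carried a CCAAT box, and Fgfr1op and Tagap1 a GC box (GGGCGG), which 38.2% of genes had. The table held a promoter for 73.3% of the genes with narrow regions only, below the 80% set as a minimum, so a comparison of CpG or motif content between narrow and wide regions was void and is not given.

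Narrow regions carried weak signal. Their width ran from 633 to 999 bp with a median of 901, against 1668 in wide regions. Their median postnatal signal was 12.2 adjusted reads (quartiles 7.40 and 18.6), against 103 in wide regions. Per kilobase, the median was 13.5 in narrow regions and 60.3 in wide ones in the postnatal table. It was 11.2 and 37.1 in the pre- and postnatal table. Division by width does not undo a choice made by width, which may follow signal. A mean under 5 was found in 104 narrow regions (14.5%) and in 3 wide ones. Only 25 narrow regions lay above the wide regions' median per kilobase in the postnatal table and 43 in the pre- and postnatal one, of which 23 did so in both. Narrow regions without a gene were about as weak, with 12.3 per kilobase.

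**Figure D1:**
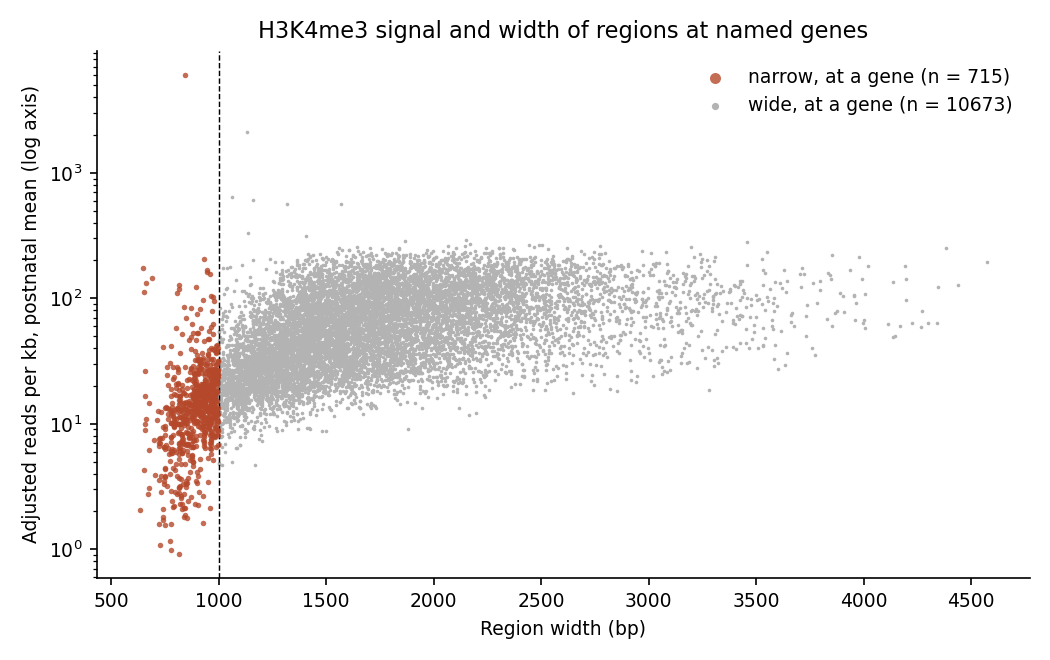
Postnatal mean signal per kilobase (adjusted reads, log axis) against region width (bp) for 715 narrow regions (red) and 10673 wide regions (grey) at named genes, with the dashed line at 1000 bp. Signal per kilobase climbs across the limit without a step, most narrow regions lie near 13.5, and the lone point far above the rest is Chl1.

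The limit of 1000 bp fell within a continuous range of widths. Among the widest members were those at Dcaf4 and Cd44 (999 bp) and at Ctu1 and Wnk4 (998 bp), and regions of 1000 bp at Nudt2, Grip2, Mrpl48 and Srrm3 stood just outside it. The narrowest was at Nup210, a nuclear pore protein gene, with 633 bp. Its signal after postnatal exposure was 2.31, 4.39, 0 and 0.0077 in nicotine libraries and 1.06, 0.000897, 0.914 and 1.82 in saccharin libraries. All of these were faint. After pre- and postnatal exposure it was 0, 4.90 and 1.96 with nicotine, against 22.7, 2.69 and 8.61 with saccharin, and the groups overlapped. Zxdb, next at 650 bp, was among the strongest members.

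For 235 narrow regions the same gene also had a wide region, and for 480 it did not. In 214 of the 235 pairs the narrow region was the weaker per kilobase, with a median log2 ratio of -2.11, narrow over wide. The median distance between them was 20.9 kb. 16 pairs lay within 2 kb and 82 within 10 kb, while 69 lay over 50 kb apart, the farthest at 942 kb. Narrow regions that were the gene's only kind were stronger per kilobase (median 14.9) than those accompanied by a wide one (10.2). At 15 genes there were 2 narrow regions and at A530032D15Rik and Odz3 there were 3. The 3 regions at Odz3, which encodes a teneurin, a transmembrane adhesion protein of neurons, all held 2.35 to 14.9 adjusted reads in every postnatal library.

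Chromosome X held a larger share of narrow regions than the genome. 43 of its 363 regions at named genes were narrow (11.8%), against 6.28% over all chromosomes, and chromosome 12 had the lowest share, 4.03%. Transcripts with non-coding RefSeq identifiers were behind 32 narrow regions (4.48%), against 2.28% of wide ones. By biotype, 681 members were protein-coding, 16 were long non-coding RNAs and 12 were transcribed pseudogenes. These shares are descriptions of the annotation, with no test.

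Housekeeping families had almost no narrow regions. None of the 65 regions at ribosomal protein genes was narrow, and 1 of 68 at genes of the mitochondrial respiratory chain, that at Cox7b2. Genes for enzymes that write or erase H3K4 methylation had 0 narrow of 19 regions and nicotinic acetylcholine receptors 0 of 6. Neuronal, astrocyte and oligodendrocyte lists also had none. Counts were 0 of 18 for excitatory neurons, 0 of 21 for GABA interneurons, 0 of 8 for astrocytes and 0 of 13 for oligodendrocytes. Over all named regions 6.28% were narrow. Lists this small, those of H3K4 enzymes and nicotinic receptors included, could hold none without standing apart. The 1 narrow region among 30 at activity-regulated genes was at Inhba, which encodes the activin A subunit.

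Among lists with at least 20 regions, adhesion molecules and developmental regulators had the largest shares. Cadherins and protocadherins, the calcium-dependent adhesion molecules, had 7 narrow of 30 regions (23.3%). Homeobox and other developmental regulators had 8 of 42 (19%), among them Meis2, Lhx3, Pax7, Pax3, Lhx5, Hoxd3 and Nkx2-2. Glutamate receptors had 4 of 31, at the NMDA receptor subunits Grin2c and Grin3b, the kainate receptor subunit Grik4 and the metabotropic receptor Grm5. Genes with the symbols of G protein-coupled receptor families had 11 of 105 (10.5%), a count that takes in Gpr137b, whose product is a lysosomal membrane protein, and its copy Gpr137b-ps. Also among them were Drd4, a dopamine receptor, and the serotonin receptors Htr2c and Htr5b. Predicted or clone-named genes had 78 of 802 (9.73%). Zinc finger genes (23 of 328, 7.01%), solute carriers (13 of 210, 6.19%) and ion channels (6 of 109) lay near the 6.28% of all named regions, as did imprinted genes (2 of 29, at Kcnq1 and Zim1), while histone genes had 2 of 21. In the smaller lists, narrow regions were 2 of 4 for microglia (Irf8 among them), 2 of 7 for neuropeptides (Tac1 and Oxt), 1 of 10 for endothelial cells (Vwf) and 1 of 9 for small non-coding RNAs. The lists were chosen with results of these data known, and the shares are given without a test.

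**Figure D2:**
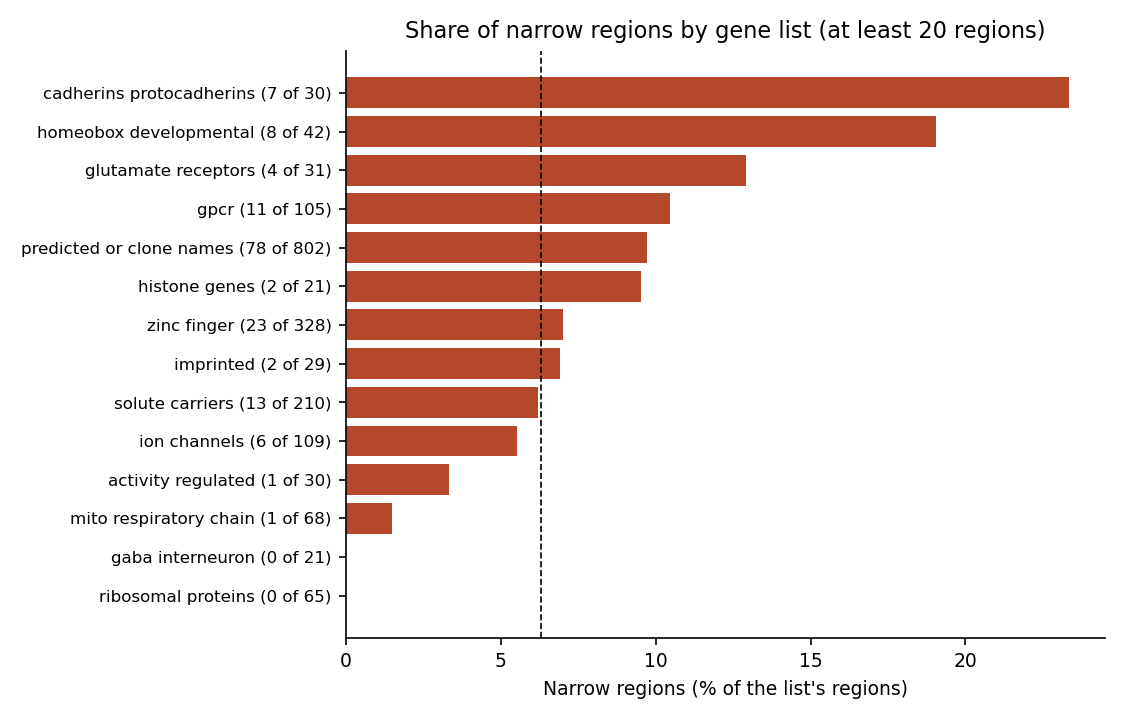
Narrow regions as a percentage of all regions of each gene list, for lists with at least 20 regions, with narrow and total counts in the labels and the share over all named regions (6.28%) as a dashed line. Cadherins (23.3%) and developmental regulators (19%) stand at the top, and ribosomal proteins (0 of 65) at the bottom.

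The strongest narrow region was at Chl1, which encodes a neural cell adhesion molecule of the L1 family (build mm9, chromosome 6, 103598740 to 103599585). It was the sole narrow region among the 15 strongest of the series. Its signal was 8457, 8324, 2962 and 3371 in nicotine libraries 1 to 4, against 3455, 3098, 5422 and 5793 in saccharin libraries 1 to 4, after postnatal exposure. The libraries high in the strongest regions were high here in both groups, and Chl1 is itself one of those regions. After pre- and postnatal exposure it was 6670, 27439 and 18253 with nicotine, against 20491, 10101 and 12284 with saccharin, and the groups overlapped. It lay 136 kb from the gene's wide region, which held 26.4 per kilobase against 6048 in the narrow one.

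The other strong members held far less signal than Chl1. Litaf, which encodes a protein of late endosomes and lysosomes, held 206 per kilobase (chromosome 16, 10974838 to 10975772). Zxdb, a zinc finger transcription factor gene on the X chromosome, held 173 (91970468 to 91971118). Next were Filip1l (chromosome 16, 57391305 to 57392252), Fgfr1op, which encodes a centrosomal protein (chromosome 17, 8358234 to 8359181), and Tagap1 (chromosome 17, 7164746 to 7165708). Nudt10, for a hydrolase of diphosphoinositol phosphates, lay on X (5749649 to 5750340), and Mamdc2 on chromosome 19 (23431589 to 23432405).

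Some strong members were even across libraries and others were not. Zxdb had 93.6, 115, 104 and 120 adjusted reads in nicotine libraries, against 136, 115, 117 and 97.3 in saccharin libraries, after postnatal exposure. Its groups overlapped and its 8 libraries spanned a log2 range of 0.53. Litaf had 342, 335, 122 and 135 in nicotine libraries, against 74.5, 87.4, 216 and 226 in saccharin libraries. Within each group of Litaf libraries one pair stood far above the other, and the pairs were those set apart by the 15 strongest regions. Mamdc2 had 220.3, 209.9, 27.0 and 37.1 with nicotine, against 56.2, 52.2, 94.3 and 140 with saccharin, with the same pairs on top. Filip1l, with 195, 202, 163 and 147 against 149, 126, 147 and 150, varied far less. Its averaged nicotine samples lay above the saccharin ones (log2 difference 0.29 ± 0.14 SE, unadjusted p = 0.048, limma), and it did not pass the adjusted test.

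That division of the postnatal libraries ran through narrow regions as a class. The median narrow region held 13.1, 13, 10.1 and 10.3 adjusted reads in nicotine libraries 1 to 4 and 10.6, 10, 13.7 and 14.2 in saccharin libraries 1 to 4. Between the pairs high and low in the strongest regions, 523 narrow regions were higher in the high pairs and 190 lower. Over all regions 7389 were higher and 7484 lower. The median was 0.29 on the log2 scale, against -0.026 in wide regions. Grouped by pre- and postnatal signal (under 10, 10 to 20, 20 to 50, 50 or more), it was 0.30, 0.29, 0.26 and 0.15 in narrow regions. In wide regions it was 0.087, 0.135, 0.092 and -0.057, so fainter wide regions leaned the same way, but less. High over low, the log2 difference was 2.37 at Kntc1, a kinetochore protein gene, 1.90 at Mamdc2 and 1.41 at Litaf. It was 1.69 at Tcp10a and 1.5 at Spag17-ps, which were picked after their values were seen. The pairs were defined by measured signal and cut across both treatments, so these are differences between libraries, given without a test, and not between groups of the study.

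**Figure D3:**
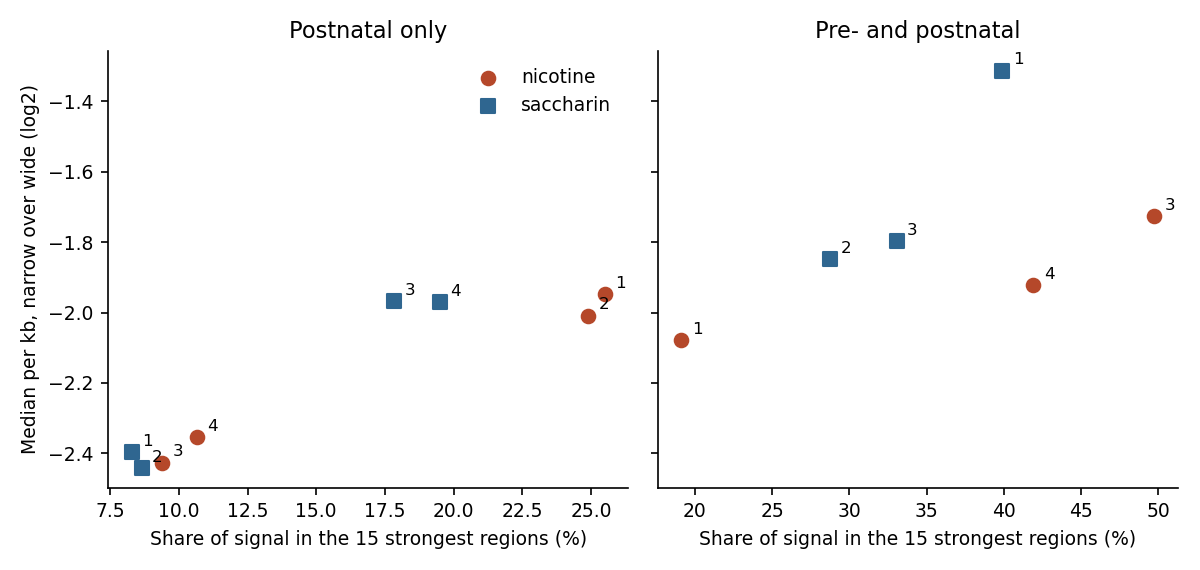
Median signal per kilobase of narrow over that of wide regions at named genes (log2) against the percentage of summed signal in the 15 strongest regions for each library, numbered as labelled, nicotine as red circles and saccharin as blue squares. After postnatal exposure the libraries form a low and a high set that each hold both treatments, and after pre- and postnatal exposure saccharin library 1 is highest.

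Across samples, narrow regions as a class did not separate the treatments. Of the summed signal in the postnatal table, they held 0.776% ± 0.124 in nicotine samples and 0.761% ± 0.0986 in saccharin samples (SD, n = 2 each, p = 1 in a two-sided exact permutation test that cannot go below 0.333). In the pre- and postnatal table they held 1.39% ± 0.312 in nicotine samples and 1.42% ± 0.279 in saccharin samples (SD, n = 3 each, p = 0.9 in the same exact test, which cannot go below 0.1). The log2 ratio of the narrow to the wide median per kilobase was -2.18 ± 0.298 in postnatal nicotine samples and -2.17 ± 0.315 in postnatal saccharin samples (exact permutation p = 1). In the pre- and postnatal table the ratio was -1.91 ± 0.176 in nicotine samples and -1.65 ± 0.296 in saccharin samples (exact permutation p = 0.3). The highest of the 6 libraries was saccharin library 1 at -1.31, and the lowest nicotine library 1 at -2.08. With 2 or 3 samples a group neither measure could have reached a p of 0.05.

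The comparison of nicotine with saccharin after birth only asked whether exposure in that period left a difference in adult cortex. No narrow region passed in the fit by treatment alone. With the high and low pairs as a term, which is also the pairing of nicotine with saccharin samples across numbers, 1 member passed. It was Litaf (log2 difference 0.64 ± 0.11 SE, adjusted p = 0.00016, limma), out of 9 regions. Each level held a single nicotine and a single saccharin sample, which left little to estimate the spread from. In that fit 52 members rather than 7 had an unadjusted p under 0.05, as did 1064 rather than 281 of all regions. 713 of the 715 members had enough signal to be tested, with a value of at least 1 in at least 2 samples. At an adjusted p under 0.05, 0 of 713 were called, as were 0 of 14873 regions overall (0.0%), and the smallest adjusted p among members was 1.00 (limma). At an unadjusted p under 0.05 there were 7 narrow regions (0.982%, against 1.89% of all regions), 6 higher with nicotine (0.842%, against 0.961%) and 1 lower (0.14%, against 0.928%). The groups did not overlap in 201 members (28.2%, against 29.1% of all regions), of which 108 were higher (15.1%, against 15.0%) and 93 lower (13%, against 14.0%). Log2 differences centred on 0.0074, with 365 higher and 348 lower, against -0.0013 in wide regions. Without nicotine libraries 1 and 2 the median was -0.14 and without nicotine libraries 3 and 4 it was 0.17. Without saccharin libraries 1 and 2 the median was -0.12 and without saccharin libraries 3 and 4 it was 0.16. The median standard error was 0.495, against 0.160 in wide regions, so a change of a given size was harder to see here.

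Of the members higher with nicotine, the lowest p-value was that of Susd3, which encodes a sushi domain membrane protein (chromosome 13, 49342766 to 49343709). It had 29.2, 28.7, 28.5 and 16.4 adjusted reads in nicotine libraries, against 8.50, 14.0, 5.34 and 18.1 in saccharin libraries. Nicotine library 4 fell within the saccharin range, although the averaged samples did not overlap (log2 difference 1.08 ± 0.41 SE, unadjusted p = 0.017, limma). Spry4, an inhibitor of receptor tyrosine kinase signalling, had 5.78, 4.61, 3.23 and 4.09 against 0.00612, 1.00, 0 and 0.903, and every library was faint there. Its averaged saccharin samples were 0.505 and 0.451, so it entered the test through the nicotine samples alone and its p-value is no support for a difference. Tagap1 (0.31 ± 0.13) and Fgfr1op (0.29 ± 0.12), whose promoters are the pair of copies printed above, had small differences at high signal.

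On the lower side stood Gpr137b, for a lysosomal membrane protein (chromosome 13, 13485428 to 13486243). It had 79.1, 80.9, 87.5 and 91.8 in nicotine libraries, against 116, 117, 91.9 and 112 in saccharin libraries (log2 difference -0.36 ± 0.16 SE, unadjusted p = 0.038, limma). The highest nicotine library and the lowest saccharin library were almost level. Its pseudogene copy Gpr137b-ps had 104, 106, 122 and 97.0 against 114, 127, 109.7 and 106, and overlapped. The names mark these regions as copies of 1 gene, so reads may be split between them. Hist1h2ab had 46.2, 57.3, 57.0 and 40.9 with nicotine, against 72.6, 77.3, 69.2 and 56.5 with saccharin (-0.44 ± 0.21). Kcnk15, a potassium channel gene, Itpripl1 and Dph3, for an enzyme cofactor of diphthamide synthesis, had log2 differences of -0.93 ± 0.50, -0.81 ± 0.46 and -0.74 ± 0.43. None of these differences passed the adjusted test, and of the 5 genes on this side Gpr137b alone had an unadjusted p under 0.05.

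**Figure D4:**
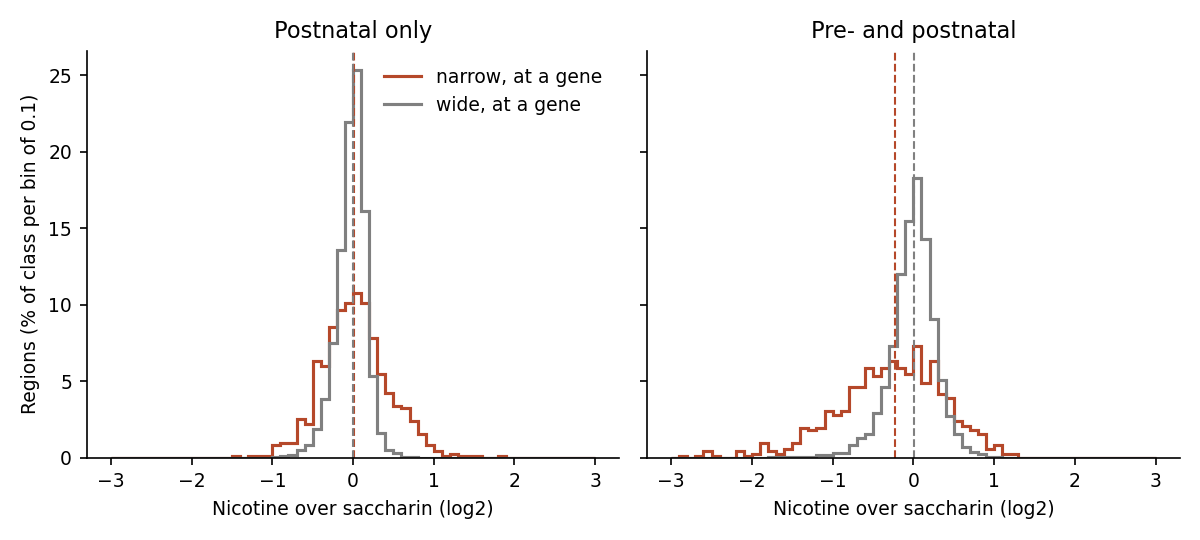
Distribution of log2 differences, nicotine over saccharin, for narrow (red) and wide (grey) regions at named genes in both exposures, as the percentage of each class per bin of 0.1, with dashed lines at the medians. Narrow regions spread more widely in both, and their median is 0.0074 after postnatal and -0.23 after pre- and postnatal exposure.

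After exposure before and after birth again no narrow region passed, 0 of 714 tested members and 0 of 14879 regions (0.0%) at an adjusted p under 0.05 (limma, smallest adjusted p of a member 0.987). At an unadjusted p under 0.05 there were 41 members (5.74%, against 3.59% of all regions), 12 of them higher (1.68%, against 1.72% of all regions) and 29 lower (4.06%, against 1.87%). The groups did not overlap in 64 members (8.96%, against 8.95%), 11 of them higher (1.54%, against 4.49%) and 53 lower (7.42%, against 4.46%). The median log2 difference was -0.23, with 260 higher and 454 lower, against 0.014 in wide regions. This lean changed sign with the scaling: after quantile normalization the median was 0.097, with 411 higher and 303 lower. It also changed sign, to 0.050, among the 361 members with a mean of at least 10. Without saccharin library 1 it was -0.11 and without nicotine library 1 it was -0.14. The 41 members at an unadjusted p under 0.05 became 23 without saccharin library 1, 26 without nicotine library 4 and 76 without nicotine library 1. Over all regions the 534 became 369, 549 and 1690 in the same order.

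The lean lay among the faintest regions, narrow or wide. Regions were grouped by their signal in the postnatal table, which this comparison did not use. Under 10 adjusted reads, the median log2 difference was -0.63 in 274 narrow regions and -0.67 in 36 wide ones. From 10 to 20 it was -0.10 in narrow and -0.19 in wide regions, and from 20 to 50 it was -0.03 and 0.01. In the 29 narrow regions at 50 or more it was -0.04. The number of members below 1 adjusted read was 45, 22 and 76 in nicotine libraries 1, 3 and 4, against 0, 11 and 5 in saccharin libraries 1, 2 and 3. That count moved with the lean, and its part in the result was not tested.

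Ano2, which encodes a calcium-activated chloride channel, had the lowest p-value of the members higher with nicotine (chromosome 6, 125826656 to 125827580). It had 84.1, 148 and 216 adjusted reads in nicotine libraries 1, 3 and 4, against 36.6, 75.3 and 98.0 in saccharin libraries (log2 difference 1.09 ± 0.30 SE, unadjusted p = 0.0016, limma). Csda, for a cold shock domain protein that binds DNA and RNA (chromosome 6, 131327080 to 131328059), had 67.0, 158 and 177 against 57.3, 70.3 and 72.0 (0.89 ± 0.26). Izumo1, for the sperm protein that binds the egg (chromosome 7, 52878602 to 52879553), had 82.1, 178 and 243 against 76.0, 87.4 and 92.4 (0.84 ± 0.26). In each of these 3 regions nicotine libraries 3 and 4 were above every saccharin library while nicotine library 1 lay among them.

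Nicotine libraries 3 and 4 were also the highest in other members. Acacb, for an acetyl-CoA carboxylase that controls fatty acid oxidation (chromosome 5, 114622814 to 114623468), had 168, 322 and 425 with nicotine, against 162, 209 and 169.8 with saccharin (0.66 ± 0.23). Plxdc2 (chromosome 2, 16604418 to 16605177) had 40.5, 76.7 and 102 against 35.4, 41.3 and 41.9 (0.78 ± 0.29). Auts2, an activator of neuronal gene expression in complex with Polycomb proteins, was picked after its values were seen (chromosome 5, 131995301 to 131996195) and had 80.2, 234 and 272 against 94.7, 109 and 98.1, with nicotine library 1 the lowest of all. Without nicotine library 1, Ano2, Csda, Izumo1, Acacb and Auts2 passed the adjusted test with log2 differences of 1.45, 1.32, 1.28, 1.04 and 1.32 (adjusted p = 0.027, 0.0014, 0.0013, 0.0022 and 0.00038, limma), and 17 regions did overall. Without nicotine library 4 they were 0.78, 0.63, 0.51, 0.38 and 0.44 in the same order (adjusted p = 0.999 for each, limma), and Plxdc2 was 0.49. Without saccharin library 1, Ano2 was 0.69. In nicotine library 1 the 15 strongest regions took 19.1% of the signal, against 49.7% and 41.9% in nicotine libraries 3 and 4. With that share as a term in the fit, the differences of Ano2, Csda, Izumo1 and Acacb were 1.04, 0.78, 0.73 and 0.58 and none passed (adjusted p = 0.975, limma).

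**Figure D5:**
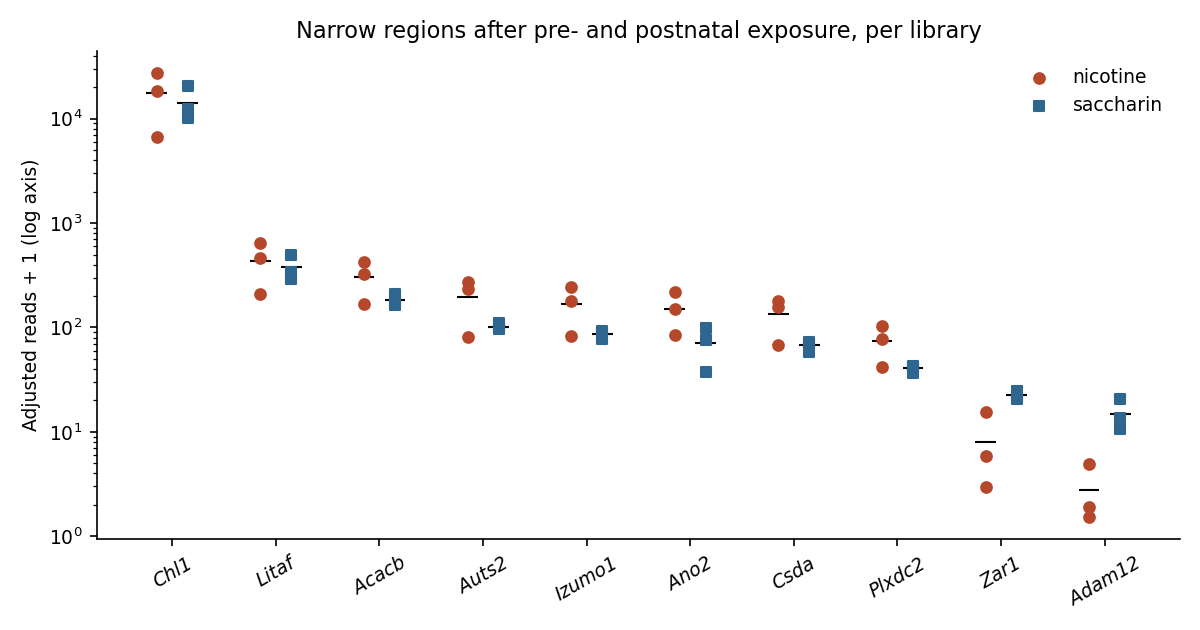
Signal in each pre- and postnatal library (adjusted reads plus 1, log axis) at 10 narrow regions, nicotine as red circles left of saccharin as blue squares, with means as black bars. From Acacb to Plxdc2 a single nicotine library lies near the saccharin libraries and the other two lie above them, while at Zar1 and Adam12 all nicotine libraries are lower.

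Of the 5 genes named on the lower side, Adam12, Chd9, Fam19a3 and Glis3 had faint regions. Zar1, for an egg protein needed at the start of development (chromosome 5, 72971392 to 72972284), had the strongest signal of the 5, with 14.3, 1.94 and 4.88 in nicotine libraries, against 23.9, 21.1 and 19.6 in saccharin libraries (log2 difference -1.80 ± 0.57 SE, unadjusted p = 0.0048, limma). Its groups did not overlap. Adam12, for a metalloprotease of the cell surface (chromosome 7, 141161245 to 141162139), had 0.919, 0.530 and 3.94 against 19.7, 12.6 and 9.58 (-2.56 ± 0.72). Chd9, a chromatin remodeller gene, had 1.91, 0.322 and 0.977 against 16.6, 10.4 and 7.33 (-2.59 ± 0.76). At Fam19a3 and Glis3 at least 1 nicotine library stood at 0, with log2 differences of -2.52 ± 0.84 and -2.64 ± 0.93. At Adam12, Chd9, Fam19a3 and Glis3 the saccharin libraries alone met the filter for testing, and the nicotine libraries alone did not. All of these depend on the pseudocount of 1: with a pseudocount of 4 the differences were -1.36 at Zar1, -1.64 at Adam12, -1.57 at Chd9, -1.52 at Fam19a3 and -1.48 at Glis3.

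The exposures did not differ from each other at any narrow region by the test of the difference itself. 0 of 712 members had an adjusted p under 0.05 (0.0% of 14871 regions), and 22 had an unadjusted p under 0.05 (3.09%, against 3.65%). Susd3 had a log2 difference of 0.20 ± 0.52 after pre- and postnatal exposure. Ano2 had -0.05 ± 0.47 and Zar1 -0.22 ± 0.32 after postnatal exposure.

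By function, no member of any list passed in either exposure. All 7 narrow cadherin regions had negative differences after pre- and postnatal exposure, with a median of -0.83 on the log2 scale, but they were faint, with postnatal means of 2.06 to 13.6, and their postnatal differences were 4 positive and 3 negative. Cdh13, which encodes T-cadherin, had 0, 8.35 and 0 with nicotine, against 8.31, 11.4 and 3.07 with saccharin. Pcdh15, a protocadherin of hair cells and retina, had 0.838, 14.8 and 12.8 against 13.5, 24.0 and 5.14, and overlapped. The 8 developmental regulators split into 4 higher and 4 lower. Meis2, a homeobox gene of forebrain neurons and the strongest of them, had 40, 15.1 and 24.5 against 46.6, 23.1 and 23.4. Of 13 solute carriers 11 were lower (median -0.48), and of the 11 genes with receptor symbols 8 were lower (median -0.36), against a median of -0.23 over all narrow regions.

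Transporters, channels and regulators supplied further members. Zfp521, a zinc finger gene of neural progenitors and the strongest member on the zinc finger list, which does not hold Zxdb, had 51.1, 56.7, 61.7 and 69.3 in nicotine libraries, against 53.7, 40.2, 66.7 and 58.8 in saccharin libraries, after postnatal exposure. Its groups overlapped. Slc1a6, the glutamate transporter EAAT4 known from cerebellar Purkinje cells, had 32.2, 22.5 and 43.2 with nicotine, against 17.7, 7.59 and 25.2 with saccharin, after pre- and postnatal exposure (log2 difference 1.01 ± 0.43 SE, unadjusted p = 0.028, limma), and it overlapped there too. Slc43a1, an amino acid transporter gene, was level, with 33.8, 34.3, 24.6 and 25.5 against 25.4, 26.1, 36.2 and 31.2 after postnatal exposure. Kcnn4, a calcium-activated potassium channel gene, had 22.9, 21.4, 10.5 and 4.16 against 17.9, 16.1, 11.9 and 17.9.

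The members that ranged most between postnatal libraries were faint ones. Kntc1 had 10.1, 9.97, 0 and 0.0226 in nicotine libraries, against 4.31, 5.03, 11.2 and 14.5 in saccharin libraries. Within each group the pair high in the strongest regions was the higher one. Wwc2, for a regulator of the Hippo pathway, had 5.86, 8.97, 3.15 and 4.10 against 4.31, 0.00771, 14.0 and 16.4, in the same arrangement. Klhl26 had 19.4, 11.5, 8.94 and 7.18 with nicotine, against 10.4, 4.02, 0.813 and 3.49 with saccharin, where the saccharin pairs ran the other way. Map2k6, a kinase that activates p38, had 12.5, 5.84, 2.18 and 7.14 against 0.0241, 1.01, 1.84 and 4.60. Its region overlapped a wide region of the same gene. Tmem231 and N4bp2l2 also ranked among the 6 widest-ranging members.

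Brain signalling genes among the members gave values without a difference past the test. Drd4 had 23.9, 32.1, 30 and 28.6 in nicotine libraries, against 19.1, 26.1, 31.5 and 35.0 in saccharin libraries after postnatal exposure. The groups overlapped there. Oxt, the gene of oxytocin, had 27.8, 19.7, 21.6 and 16.4 against 13.8, 25.1, 13.7 and 17.8. Tac1, which encodes substance P, had 7.22, 10.3, 14.6 and 4.12 against 7.42, 5.03, 9.21 and 15.5. Neither peptide gene showed separate groups. Grin2c had log2 differences of -0.85 ± 0.51 after postnatal and -1.04 ± 0.59 after pre- and postnatal exposure, and Grm5 -0.67 ± 0.58 and -0.69 ± 0.60. The other glutamate receptor members were of mixed sign, with 0.39 ± 0.67 and -0.56 ± 0.70 at Grin3b and -0.09 ± 0.38 and 0.34 ± 0.50 at Grik4, in the same order of exposures. Kcnq1, an imprinted potassium channel gene, had 11.8, 13.7, 8.07 and 12.2 with nicotine, against 3.31, 3.02, 15.9 and 21.0 with saccharin, where saccharin pairs lay on either side of the nicotine libraries.

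Microglial and vascular markers among the members were weak. Irf8 had 5.90, 6.86, 5.80 and 5.11 in nicotine libraries, against 3.19, 1.01, 4.63 and 7.30 in saccharin libraries, after postnatal exposure. Vwf, the endothelial clotting factor gene, had 12.8, 8.23, 10.8 and 10.2 against 3.23, 3.02, 6.45 and 12.8. Neither separated the treatments past the test, with log2 differences of 0.57 ± 0.67 at Irf8 and 0.80 ± 0.59 at Vwf.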

How the data were processed

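H3K4me3 ChIP-seq libraries were grouped by exposure and solution from the labels. Values in the files are signal: the authors counted reads in each region and deposited them after adjustment, with edgeR and build mm9 named in the submitters' processing notes. They are not whole and each table was adjusted separately. For the aligner, peak caller and versions nothing is stated in the sources used here. 4322 empty repeats among the 19203 rows of a table were left out.

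The members and the gene lists were chosen with earlier results of these data known. Differences were tested with limma-trend (limma 3.58.1, R 4.3.3), two-sided and separately for each exposure, on log2(value + 1). A region entered if its value reached 1 in at least 2 postnatal or 3 pre- and postnatal samples, and p-values were adjusted over all such regions by Benjamini and Hochberg's method. Fold changes on this scale understate the change of faint regions. The log2 differences of the exposures were compared with a z test, and values per sample by exact permutation tests (SciPy 1.17.1). Counting intervals are not given because raw depth is unknown. Genes were named by rule: per exposure and direction the 5 lowest p-values without predicted genes, the 8 strongest per kilobase, the widest and narrowest, and members of the cell type, receptor and developmental lists, up to 4 each. Others were picked after their values were seen. Some members that the rule names are not reported here. Symbols came from the tables, and 709 members were matched to a RefSeq gene table (GRCm38.p6) used for biotypes and promoters. The fit was tested on simulated data. Alternatives were another pseudocount, filters, scalings, a replicate block, the strongest regions' share as a term and leaving out samples. That term was high or low in the postnatal fit and the percentage itself in the pre- and postnatal fit.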

Additional observations from a re-analysis of the deposited data

How the results depend on the processing

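Calls among narrow regions were 0 in both exposures with a pseudocount of 4, no filter, a mean of at least 10, both other scalings and the replicate block. With the share of the strongest regions as a term, 1 was called after postnatal exposure, Litaf (log2 difference 0.64, adjusted p = 0.00016, limma), out of 9 regions overall. Leaving out samples gave 0 to 4 calls after postnatal and 0 to 5 after pre- and postnatal exposure. Leaving out a postnatal pair sets a single sample against 2 and assumes that it varies like the other group, so these calls rest on 1 sample. Without nicotine libraries 3 and 4 they were Litaf, Tcp10a, Mamdc2 and Spag17-ps, all higher. Without nicotine libraries 1 and 2 it was Mamdc2, lower (-1.29). Members at an unadjusted p under 0.05 after postnatal exposure numbered 7 (281 of all regions), and 3 (138) with the replicate block. They numbered 23 (359) after quantile normalization, 36 (1375) with 8 separate libraries and 52 (1064) with the high or low term. After pre- and postnatal exposure they numbered 41 (534 of all regions), 17 (459) with a mean of at least 10 and 26 (284) with the block. They numbered 23 (369) without saccharin library 1, 26 (549) without nicotine library 4 and 76 (1690) without nicotine library 1. Postnatal samples with the same number deviated in opposite directions (r = -0.46). With 2 samples a group the deviations mirror each other, so this r restates that the high and low pairs cut across both groups. It cannot show how samples were paired. The crossed pairing is the same fit as the high or low term, with 1 member called. Pre- and postnatal samples that shared a number had r = -0.11 and -0.098, which does not settle whether the numbers paired them.

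The postnatal share difference of 0.015 percentage points was -0.042 at a width limit of 1100 bp and -0.073 to 0.102 over samples left out. The postnatal log2 ratio difference of -0.0043 was 0.045 at 900 bp and -0.227 to 0.219 over samples left out. The pre- and postnatal share difference of -0.030 ranged from -0.167 to 0.140 over samples left out, and the log2 ratio difference of -0.256 from -0.354 to -0.0859, the last without saccharin library 1. Without nicotine library 1 it was -0.171. The median over members, an alternative chosen after seeing the data, was -0.23 after pre- and postnatal exposure, 0.097 after quantile normalization and 0.050 with a mean of at least 10. The cause was not tested in any of these. No named log2 difference changed sign among those of the low p-value rule. Low signal limits what could be seen: 100 members stood below 0.5 in some library.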

Other observations

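A group of members with far more signal in the pre- and postnatal table was noticed after the values were seen. With 1 added to both, the mean there was more than 2-fold the postnatal mean in 73 narrow regions (10.2%). This held for 13 wide regions (0.122%) and for 248 of all 14881 regions (1.67%), which include those without a gene. The classes were not matched for signal. The tables were adjusted separately and shared no samples, so levels across them are not a comparison of exposures. 15 of the 73 had a mean of at least 20 in the pre- and postnatal table, among them Chl1, Litaf, Acacb, Auts2, Izumo1, Ano2 and Csda, and at 11 of the 15 the gene also had a wide region. 9 of the 15 were lowest in nicotine library 1, against 196 of all 715 members.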
